A study of Homo sapiens with 9 samples.

Results

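The long noncoding RNA UCA1 and 7 other long noncoding RNAs of cancer (H19, MALAT1, NEAT1, MEG3, GAS5, TUG1 and PVT1) were followed on 9 arrays. The cells were Hec50, a human line of aggressive endometrial cancer that has long been in use. The members were all probe sets whose only gene symbol in the platform's probe table was 1 of these 8 genes. They came to 31 of the 54675 probe sets on the array and covered 6 of the 8 genes: 1 for UCA1, 12 for MALAT1, 10 for MEG3, 6 for TUG1, 1 for GAS5 and 1 for PVT1. H19 and NEAT1 had 0, because the 2 probe sets of H19 and the 9 of NEAT1 also carry the symbol of a small RNA made from the same locus. For the same reason 4 further probe sets of GAS5 and 4 of PVT1 were not used here. The 8 genes were chosen partly on measured changes between mimic and control arrays, with earlier results of these data known. UCA1 heads the list, so its changes are given as a description with no test. Tests of the other members use the same arrays that informed the choice, so their calls are not independent support for these genes.

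Expression was measured in 3 groups of 3 arrays each. The first group received a synthetic mimic of miR-200c at 60 nM for 48 hours, the second a scrambled negative control RNA at the same dose and time, and the third was mock transfected, with no dose or time given in the labels. All 3 groups were the same line. Nothing in the labels tells whether the replicates were separate cultures, so a p-value here reflects array-to-array spread that could be purely technical. The study asked which genes respond to miR-200c in an aggressive cancer.

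Long noncoding RNAs are transcripts that act without a long reading frame, some as scaffolds of nuclear bodies and some in the cytoplasm. UCA1 was first described as an RNA raised in bladder cancer. MALAT1 is an abundant RNA of nuclear speckles, where splicing factors gather, and NEAT1 is the scaffold of paraspeckles. H19 and MEG3 are imprinted genes expressed from the maternal copy, H19 being also the precursor of a microRNA. GAS5 carries small nucleolar RNAs in its introns and its spliced RNA builds up in cells that stop growing. TUG1 was found in mouse as a taurine-induced transcript and is widely expressed, and PVT1 lies beside the MYC oncogene. The RefSeq table lists TUG1 as protein coding and the other 7 as long noncoding RNAs.

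The RNA under test, miR-200c-3p, is shown beside its family because the seed (bases 2 to 8, in capitals) decides which transcripts a microRNA of this kind can pair with. The sequences are RefSeq's mature forms on GRCh38.p14. miR-200c-3p lies at chr12:6963742-6963764 on the plus strand. It shares its seed with miR-200b-3p and miR-429, while miR-200a-3p and miR-141-3p share another.
hsa-miR-200c-3p: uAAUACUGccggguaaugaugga
hsa-miR-200b-3p: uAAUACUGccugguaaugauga
hsa-miR-429: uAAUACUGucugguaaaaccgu
hsa-miR-200a-3p: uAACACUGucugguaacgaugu
hsa-miR-141-3p: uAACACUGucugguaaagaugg

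Values below are on the log2 scale. For every probe set the authors' table has its own 9-array median subtracted, so 0 stands for that median and the original level is lost. Each probe set with enough nonzero values can still be placed in a level class (below 4, from 4 to 8, or 8 and more on the log2 scale) from the rounding of the stored numbers. The class depends on all 9 arrays, so a probe set with some arrays under a bound can be placed below the class of its median. Signal over background is not known, so a low class does not mean that an RNA was undetected. A call means that limma, fitted to 54613 probe sets, gave an adjusted p (Benjamini-Hochberg) below 0.05. By this rule 8.66% of all probe sets were called between mimic and scrambled control, 12.1% between mimic and mock and 4.07% between scrambled control and mock. With 3 arrays a group, precision is limited. As a check of the labels, the probe set 201131_s_at of CDH1, the E-cadherin gene, stood at 3.44, 3.26 and 3.08 with the mimic and between -0.46 and 0.20 in the other 6 arrays, and 3 of 4 probe sets of the repressor gene ZEB1 were called lower than in scrambled control. Epithelial markers EPCAM, KRT7, KRT8, KRT18 and PAX8 had a probe set in the highest level class (10 of 31 probe sets), as did the mesenchymal markers FN1 and VIM (5 of 18) and the fibroblast marker COL1A1 (3 of 19). Of the epithelial probe sets 9 were called higher and 4 lower with the mimic than with scrambled control, and all 4 were of PAX8, a lineage factor gene of the female tract. None of the 10 probe sets for leukocyte markers and none of the 9 for endothelial markers had one.

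UCA1 was the member that differed most. Its probe set, 227919_at, stood at 1.43, 1.20 and 1.52 in the 3 mimic arrays. In scrambled control arrays it stood at -0.34, -0.14 and -0.04, and in mock arrays at 0.00, -0.07 and 0.03. Every mimic array was above every control array, and the lowest mimic value exceeded the highest control value by more than the whole spread within any group. The means were 1.38 ± 0.16 with the mimic, -0.17 ± 0.15 with scrambled control and -0.01 ± 0.05 with mock (SD, n = 3 each).

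The UCA1 level was 2.94-fold higher with the mimic than with scrambled control, a log2 change of 1.56 (SE 0.09, 95% interval 1.35 to 1.76). Against mock it was 2.63-fold higher, a log2 change of 1.40 (SE 0.09, 95% interval 1.19 to 1.60). These comparisons share the 3 mimic arrays. UCA1 was chosen partly on such changes, so the intervals and ranks given for it are a description and not a test. Scrambled control minus mock gave -0.16 (SE 0.09, 95% interval -0.37 to 0.04), and the values of those groups overlapped. Among 54613 probe sets, 11 had a larger log2 change than UCA1 between mimic and scrambled control and 18 between mimic and mock. The median change of all probe sets was -0.01 and 0.01 in these comparisons. UCA1 was in the level class of 8 and more. After quantile normalization its changes were 1.16 against scrambled control and 0.97 against mock. That step acted on the centred values and gave every array the same spread of deviations, so it is not a renormalization of expression levels.

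**Figure D1:**
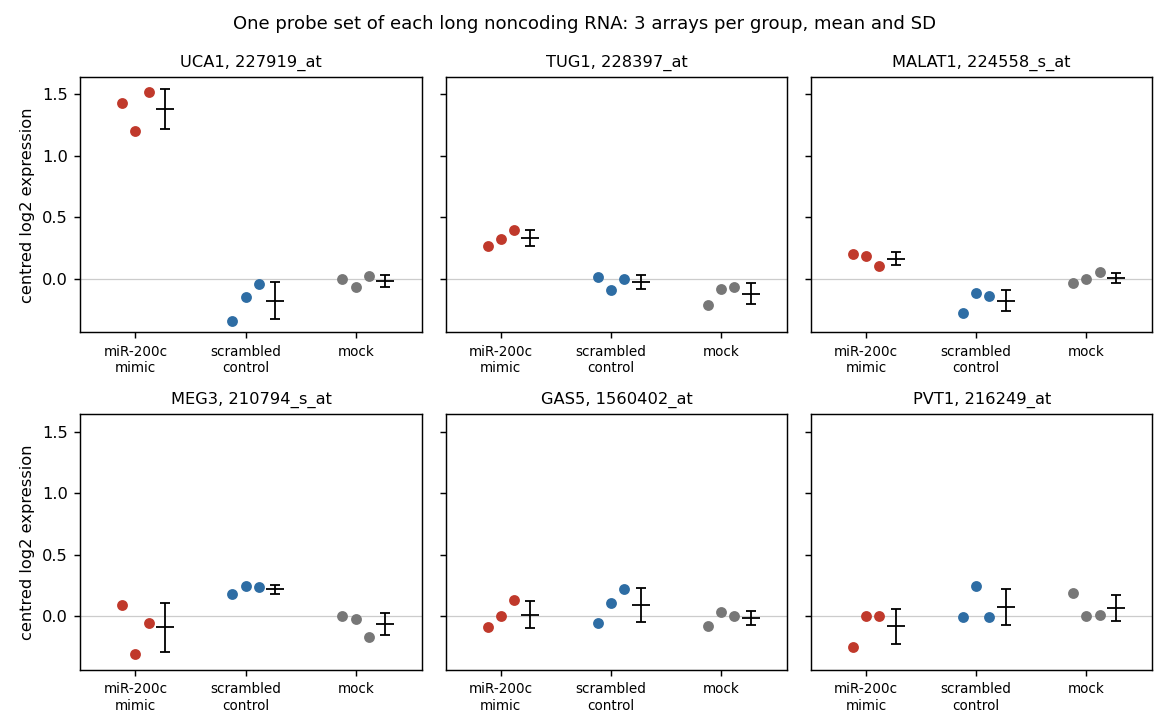
Centred log2 expression (vertical axis) of 1 probe set for each of 6 long noncoding RNAs, by group, with 1 point per array and the mean and SD of 3 arrays beside them. The probe set shown is the one of its gene with the largest absolute change for mimic minus scrambled control, so it does not stand for the others. The UCA1 mimic arrays lie between 1.20 and 1.52, above all control arrays, while the groups of GAS5 and PVT1 overlap.

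The chromosomal neighbours of UCA1 are given for context. Of 7 neighbouring genes with a probe set on the array (the olfactory receptor genes OR10H1 and OR10H2 and the cytochrome P450 genes CYP4F2, CYP4F3, CYP4F8, CYP4F11 and CYP4F12), 0 of 7 probe sets were called in any of the 3 comparisons by limma, with 0, 1 and 0 at an unadjusted p under 0.05 against scrambled control, against mock and between the controls. Over all probe sets 8.66%, 12.1% and 4.07% were called, so 0 calls among 7 says nothing particular about these genes. Their log2 changes lay between -0.11 and 0.11 for mimic minus scrambled control, and between -0.13 and 0.19 for mimic minus mock. OR10H1, the nearest of them, had a log2 change of 0.00 (SE 0.09) against scrambled control. The levels of these genes' RNA in Hec50 cells are not known from centred values, so a gene that was not expressed would look the same.

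Genes whose profile over the 9 arrays was most like that of UCA1 were taken from 1685 probe sets whose group means differed by at least 0.5. The 5 with the highest Pearson r were FAM200C (0.996), the metalloproteinase gene PAPPA (0.994), the exchange factor gene FGD6 (0.994), the keratin gene KRT15 (0.994) and ZBED2 (0.994). The 5 with the lowest were the ankyrin gene ANK2 (-0.993), the vesicle fusion gene VTI1B (-0.993), the phosphatase gene PTPN11 (-0.992), MARCKS, which encodes a substrate of protein kinase C (-0.990), and OSTM1 (-0.990). All of these rest on 9 arrays that fall into a mimic and a control cloud, so a high r says mainly that a gene separated the mimic from both controls. KRT15 had means of 1.35 ± 0.15 in mimic, -0.21 ± 0.16 in scrambled control and -0.05 ± 0.16 in mock arrays (SD, n = 3 each), close in size to UCA1. FAM200C followed the same order on a smaller scale, at 0.53 ± 0.05 in mimic, -0.05 ± 0.05 in scrambled control and -0.03 ± 0.05 in mock arrays (SD, n = 3 each).

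**Figure D2:**
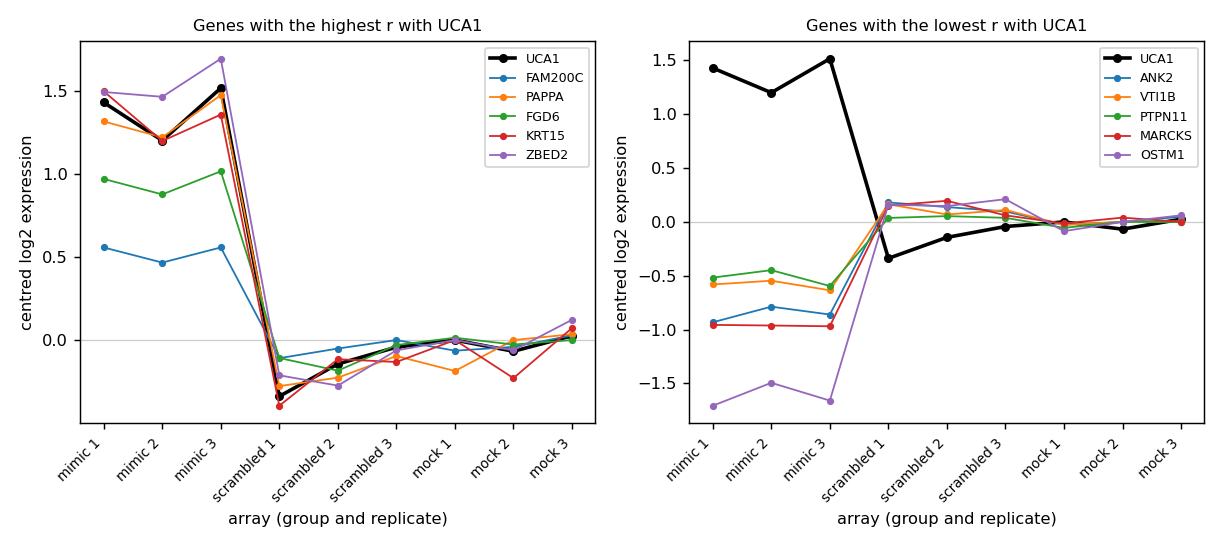
Centred log2 expression (vertical axis) over the 9 arrays (horizontal axis) for UCA1 (black) with the 5 genes of highest r (left) and the 5 of lowest r (right); lines join the values of 1 gene and carry no order among replicates. KRT15, PAPPA and ZBED2 reach mimic means between 1.34 and 1.55, and OSTM1 one of -1.62.

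Of the 30 other member probe sets, limma called 3 higher and 0 lower with the mimic than with scrambled control, beside 4.52% and 4.15% of all probe sets. The 3 arrays of each group did not overlap in 5 that were higher and 2 that were lower, where 11.7% and 12.5% of all probe sets did not overlap in these directions. Against mock 2 were called higher and 0 lower, beside 5.07% and 6.98% of all. Here 10 higher and 1 lower did not overlap between groups, beside 13.6% and 14.6% of all (28.2% in both directions, and 24.2% against scrambled control). Between scrambled control and mock 1 was called higher and 0 lower, beside 1.23% and 2.84%, and 4 higher and 3 lower did not overlap, beside 12% and 12.6% (24.6% in both directions). At an unadjusted p under 0.05 there were 8, 8 and 6 of the 30 in the 3 comparisons, beside 21.1%, 24.7% and 19.4% of all probe sets. The median log2 change of the 30 was 0.08 against scrambled control and 0.10 against mock, beside -0.01 and 0.01 over all probe sets. UCA1 apart, no member changed by more than 0.58 on the log2 scale with the mimic in either comparison.

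**Figure D3:**
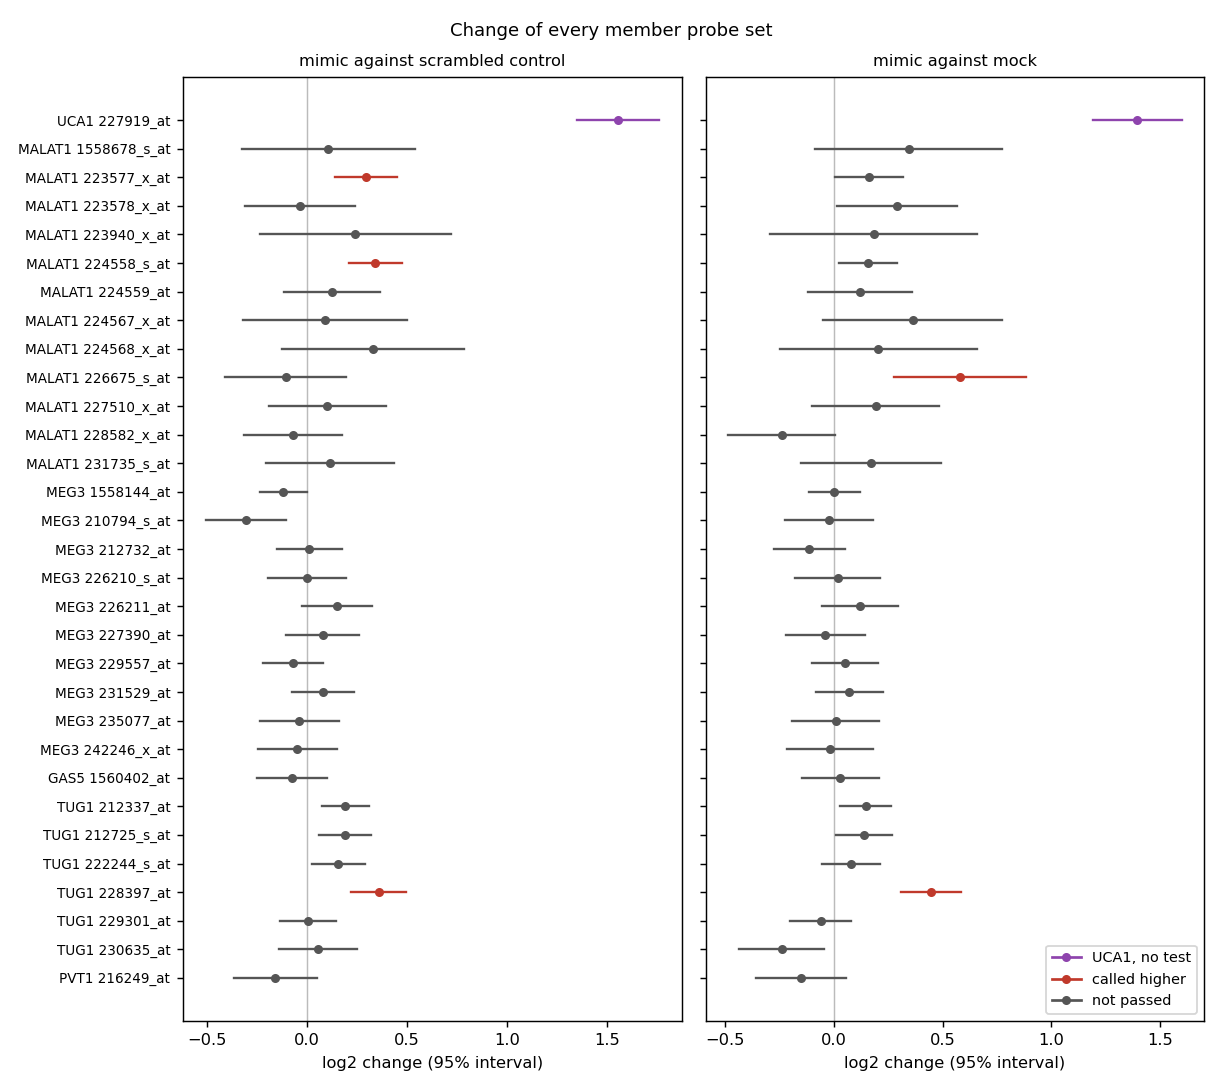
Log2 change with its 95% interval (horizontal axis) for each of the 31 member probe sets (rows), for mimic minus scrambled control (left) and mimic minus mock (right). UCA1 lies at 1.56 and 1.40, and its intervals are a description and not a test. The called probe sets of TUG1 and MALAT1 lie between 0.29 and 0.58, and the other probe sets were not called.

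TUG1 gave the call that held in both comparisons. Its probe set 228397_at stood at 0.27, 0.32 and 0.40 with the mimic, against 0.01, -0.09 and 0.00 with scrambled control and -0.21, -0.08 and -0.06 with mock. All 3 mimic arrays were above all 6 control arrays. The TUG1 signal at 228397_at rose 1.28-fold against scrambled control (log2 change 0.36, SE 0.06, limma adjusted p = 0.00489). Against mock it rose 1.36-fold (log2 change 0.45, SE 0.06, limma adjusted p = 0.00110).

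The other TUG1 probe sets moved less. Probe set 212337_at had 0.16, 0.10 and 0.12 in mimic arrays, against -0.12, -0.01 and -0.06 in scrambled control arrays, a log2 change of 0.19 (SE 0.05) with an adjusted p of 0.0515 in limma. The change of 212725_s_at was also 0.19 (SE 0.06, limma adjusted p = 0.0758), and that of 222244_s_at was 0.16 (SE 0.06, limma adjusted p = 0.162). With the fit limited to probe sets in the highest level class these 3 were called too, with limma adjusted p-values of 0.00704, 0.0142 and 0.0424. That fit held fewer probe sets and called 4120 of them, so its calls cannot be set beside the shares of the full fit. The last 2 TUG1 probe sets, 229301_at and 230635_at, are in the class from 4 to 8, and changed by 0.00 and 0.05 against scrambled control. Against mock 230635_at had a log2 change of -0.24 (SE 0.09, limma adjusted p = 0.117), with 0.02, 0.00 and -0.13 in the mimic arrays and 0.33, 0.00 and 0.28 in the mock arrays. The mean of the 6 probe sets, fitted with 1 value per gene, had a log2 change of 0.16 against scrambled control (limma adjusted p = 0.0290) and 0.09 against mock (limma adjusted p = 0.205).

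TUG1's promoter window is printed because 1 TUG1 probe set was called against both controls. It covers 250 bases before to 50 bases after the start, at chr22:30969015-30969314 on the plus strand of GRCh38.p14 in RefSeq. Promoter windows were matched for 5 of the 8 genes. Both strands were searched for CACCTG, the E-box form that ZEB repressors bind, and for CACGTG, the palindromic E-box. These motifs do not overlap each other in sequence. The TUG1 window held 0 matches to CACCTG and 1 to CACGTG (capitals), which starts at position -77 from the gene start. Of 35116 RefSeq windows of the same 300 bases, 20.6% hold CACCTG and 7.3% hold CACGTG on either strand. The windows of H19 and GAS5 held 1 CACCTG each, and those of MALAT1 and MEG3 held neither. A match is only a run of letters, and no binding was measured.
TUG1 promoter window: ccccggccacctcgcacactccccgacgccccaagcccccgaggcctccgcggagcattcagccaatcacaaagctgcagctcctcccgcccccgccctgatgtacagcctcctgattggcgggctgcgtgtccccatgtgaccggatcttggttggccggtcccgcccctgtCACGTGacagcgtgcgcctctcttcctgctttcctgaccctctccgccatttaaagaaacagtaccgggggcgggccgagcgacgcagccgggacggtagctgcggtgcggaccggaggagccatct

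MALAT1 was measured by 12 probe sets, 8 of them in the highest level class and 4 from 4 to 8. Against scrambled control 2 of the 12 were called higher, beside 4.52% of all probe sets, and 10 did not pass. Probe set 224558_s_at had 0.20, 0.19 and 0.11 in mimic arrays, -0.27, -0.11 and -0.14 in scrambled control arrays and -0.03, 0.00 and 0.06 in mock arrays. The mimic arrays were above all others, and the scrambled control arrays were below the mock arrays. Its log2 change was 0.34 against scrambled control (SE 0.06, limma adjusted p = 0.00523) and 0.16 against mock (SE 0.06, limma adjusted p = 0.132).

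The second called MALAT1 probe set, 223577_x_at, had 0.25, 0.19 and 0.05 in mimic arrays, against -0.25, -0.07 and -0.06 in scrambled control arrays. Its change was 0.29 (SE 0.07, limma adjusted p = 0.0266). The call was lost without mimic replicate 1 (limma adjusted p = 0.0896), mimic replicate 2 (0.0833) or scrambled replicate 1 (0.0944), with the replicate number as a block (0.0590) and in a fit to the 6 arrays compared (0.0689). In 15 alternative fits the adjusted p ranged over 0.00498 to 0.114.

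The MALAT1 call against mock came from another probe set. Probe set 226675_s_at had 0.00, 0.25 and 0.03 in mimic arrays, 0.07, 0.56 and -0.02 in scrambled control arrays and -0.34, -0.54 and -0.58 in mock arrays. The mock arrays were below all 6 arrays that had received a small RNA. Its change against mock was 0.58 with the mimic (SE 0.14, limma adjusted p = 0.0194) and 0.69 with scrambled control (SE 0.14, limma adjusted p = 0.0229). Mimic minus scrambled control gave -0.11 for it (SE 0.14, limma adjusted p = 0.726). The call with the mimic was lost without mimic replicate 2 (adjusted p = 0.0794), mock replicate 2 (0.0676) or mock replicate 3 (0.0650), and that with scrambled control without mock replicate 2 (0.0834) or mock replicate 3 (0.0711) and in a fit to the 6 arrays compared (0.0546).

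The mean of the 12 MALAT1 probe sets was also fitted with 1 value per gene. Its log2 change was 0.13 against scrambled control (limma adjusted p = 0.511) and 0.21 against mock (limma adjusted p = 0.211). MALAT1 probe sets did not move as a block. Over the 9 arrays, the Pearson r between pairs of them ran from -0.54 to 0.99 with a median of 0.44 (66 pairs). Probe sets 223577_x_at and 224558_s_at followed each other (r = 0.960), as did 1558678_s_at and 224567_x_at (r = 0.989), while the pairs across these groups had r between 0.14 and 0.23. Scrambled replicate 2 was the highest of the 9 arrays in 7 of the 12, with a median of 0.41 over them, and scrambled replicate 1 and scrambled replicate 3 were each the lowest in 4. The SD among the 3 scrambled control arrays reached 0.53, against at most 0.28 in mimic and 0.19 in mock arrays. In the 2 probe sets called against scrambled control, scrambled replicate 1 was the lowest of the 9 arrays, and scrambled replicates 2 and 3 lay close together. In the manufacturer's naming, probe sets ending in _x_at can also bind other sequences and those ending in _s_at several transcripts of a family, and 8 of the 31 members carry each ending.

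The mock arrays also lay below both other groups, which overlapped, in the ACTB control. The ACTB signal from the 3′ end minus that from the 5′ end bears on RNA integrity and labelling. Its centred mean was 0.02 ± 0.08 with the mimic, 0.10 ± 0.04 with scrambled control and -0.18 ± 0.03 with mock (SD, n = 3 each). The order of the scrambled control and mock groups in MALAT1 226675_s_at is the same, and the part of this control in the changes against mock was not tested. For GAPDH the means were -0.02, 0.01 and 0.03, with SDs of at most 0.04.

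**Figure D4:**
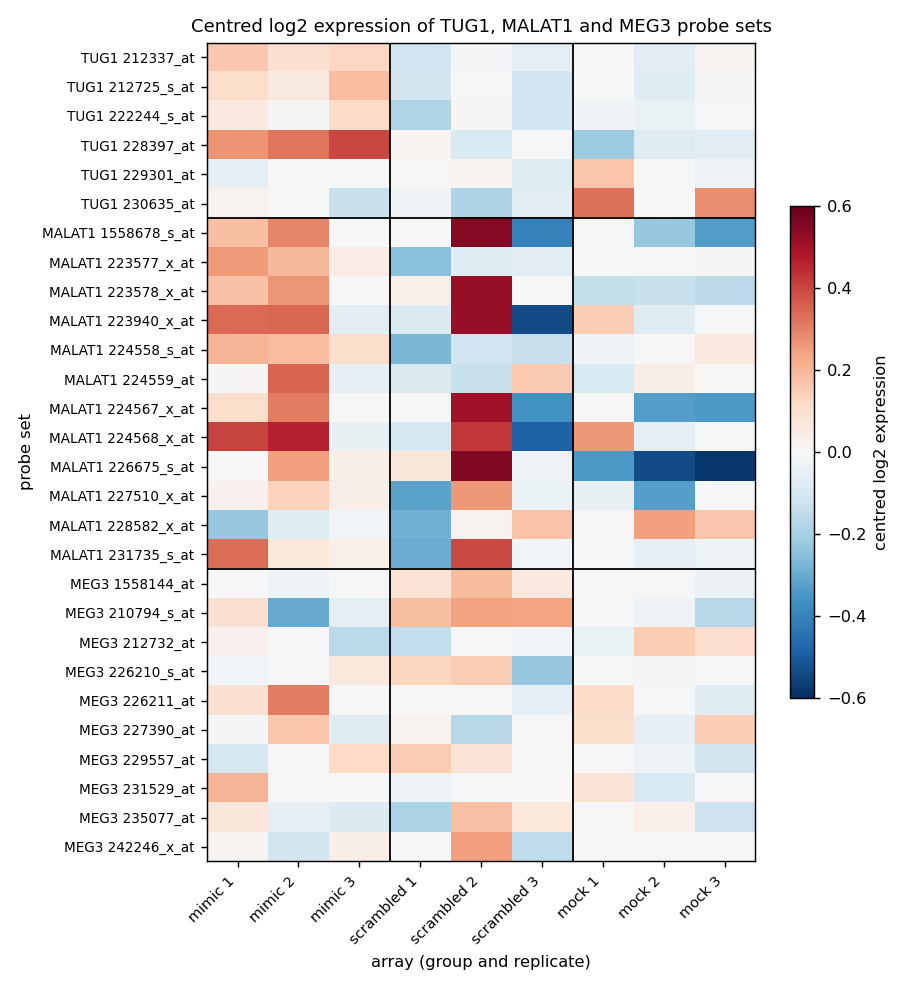
Centred log2 expression (colour, -0.6 to 0.6) of the TUG1, MALAT1 and MEG3 probe sets (rows) in the 9 arrays (columns, by group). TUG1 228397_at is high in the 3 mimic arrays, MALAT1 226675_s_at is low in the 3 mock arrays, and scrambled replicate 2 is highest in 7 of 12 MALAT1 rows.

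MEG3 had 10 probe sets, of which 7 were in the class from 4 to 8 and 3 below 4. None of the 10 was called by limma in any of the 3 comparisons. At an unadjusted p under 0.05 there were 2 against scrambled control, 0 against mock and 2 between scrambled control and mock. Over all probe sets 8.66%, 12.1% and 4.07% were called, and 21.1%, 24.7% and 19.4% had such a p. Among 10 probe sets, counts this small say nothing particular about MEG3. Probe set 210794_s_at had 0.09, -0.30 and -0.05 in mimic arrays, 0.18, 0.24 and 0.24 in scrambled control arrays and 0.00, -0.02 and -0.17 in mock arrays. Scrambled control stood above both other groups without overlap. Mimic minus scrambled control was -0.31 (SE 0.09, 95% interval -0.51 to -0.11, limma adjusted p = 0.0673), and mimic minus mock was -0.02 (SE 0.09, limma adjusted p = 0.912). It passed against scrambled control after quantile normalization (limma adjusted p = 0.0342), among probe sets with no tied values (0.0437) and without mimic replicate 1 (log2 change -0.40, adjusted p = 0.0221). In 1558144_at the mimic arrays were at 0.00, -0.03 and 0.00 and the scrambled control arrays at 0.08, 0.19 and 0.06 (log2 change -0.12, SE 0.05, limma adjusted p = 0.220). The other 8 changed by between -0.07 and 0.15 against scrambled control. Pairs of MEG3 probe sets had a median r of -0.01 over the 9 arrays, so they carried little common pattern.

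GAS5 and PVT1 had 1 probe set each, both in the class from 4 to 8. GAS5 1560402_at had -0.08, 0.00 and 0.13 in mimic arrays, -0.05, 0.11 and 0.22 in scrambled control arrays and -0.08, 0.03 and 0.00 in mock arrays, and all groups overlapped. Its log2 change was -0.08 against scrambled control (95% interval -0.25 to 0.10, limma adjusted p = 0.649) and 0.03 against mock (95% interval -0.15 to 0.21, limma adjusted p = 0.869). PVT1 216249_at had -0.24, 0.00 and 0.00 in mimic arrays, -0.01, 0.25 and 0.00 in scrambled control arrays and 0.19, 0.00 and 0.01 in mock arrays. The change was -0.16 against scrambled control (95% interval -0.37 to 0.05, limma adjusted p = 0.379) and -0.15 against mock (95% interval -0.36 to 0.06, limma adjusted p = 0.374). MYC, beside PVT1, was called lower against both scrambled control (log2 change -0.22, SE 0.06, limma adjusted p = 0.0484) and mock (-0.33, SE 0.06, limma adjusted p = 0.00546). The neighbours of PVT1 did not share a direction. Of their 9 probe sets, MYC included, 2 were called higher and 2 lower against scrambled control, and 1 higher and 1 lower against mock.

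Among the members, 5 probe sets followed UCA1 with r above 0.8 over the 9 arrays: TUG1 212337_at (0.934), TUG1 228397_at (0.911), TUG1 212725_s_at (0.875), MALAT1 224558_s_at (0.839) and MALAT1 223577_x_at (0.809). TUG1 222244_s_at came next at 0.764. PVT1 216249_at had the lowest r, -0.554. These values rest on the same 9 arrays and the same split into mimic and controls, and are given as a description.

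Further long noncoding RNAs of cancer were counted from a list of 76 genes, of which 53 had a probe set with a single symbol. Of their 113 probe sets, 10 were called higher and 5 lower with the mimic than with scrambled control (13.3%, beside 8.66% of all), with a median change of -0.02. Against mock 10 were higher and 9 lower (16.8%, beside 12.1%), with a median of 0.03. Between scrambled control and mock 1 was higher and 1 lower (1.77%, beside 4.07%). LINC00472 rose at both of its probe sets. The first, 220324_at, had 0.58, 0.67 and 0.76 in mimic arrays, 0.00, -0.08 and 0.03 in scrambled control arrays and -0.44, -0.28 and -0.03 in mock arrays. Its log2 change was 0.69 against scrambled control (SE 0.09, limma adjusted p = 0.00113), and that of 235771_at was 0.43 (SE 0.08, limma adjusted p = 0.00574).

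NORAD, a cytoplasmic RNA that binds PUMILIO proteins, rose at both of its probe sets against scrambled control, at 1558028_x_at by 0.68 (SE 0.18, limma adjusted p = 0.0460). That probe set had 0.80, 0.43 and 0.12 in mimic arrays and -0.05, -0.55 and -0.08 in scrambled control arrays. Its mock arrays, at -0.05, 0.00 and 0.37, overlapped the mimic arrays. At 224597_at NORAD rose by 0.22 against scrambled control (SE 0.05, limma adjusted p = 0.0132) and by 0.37 against mock (SE 0.05, limma adjusted p = 0.000676). The antisense transcript OIP5-AS1 was called at 1 of 3 probe sets, 231808_at, with 0.40 against scrambled control (SE 0.05, limma adjusted p = 0.000967). TMPO-AS1 rose by 0.26 (SE 0.06, limma adjusted p = 0.0275). Whether these antisense probe sets could also pick up the partner genes is not known here. DLEU2 fell at 2 of 7 probe sets against scrambled control, by 0.34 and 0.29, and against mock 2 of the 7 fell and 2 rose. Its probe sets thus disagree in direction against mock. Against scrambled control 216856_s_at was higher too, with 0.52, 0.23 and 0.21 in mimic arrays and -0.17, -0.03 and 0.15 in scrambled control arrays. In that comparison 0 genes of the list were called in both directions.

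Genes that like GAS5 carry small nucleolar RNAs had 19 single-symbol probe sets for 12 of 31 listed genes, of which 0 were called higher and 1 lower against scrambled control (5.26%, beside 8.66% of all). The 1 was ZFAS1 226835_s_at (log2 change -0.21, SE 0.05, limma adjusted p = 0.0377). Against mock 1 was higher and 3 lower (21.1%, beside 12.1%).

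Of 88 probe sets for 24 proteins of paraspeckles, the bodies that NEAT1 RNA builds, 4 were higher and 5 lower against scrambled control (10.2%) and 1 higher and 11 lower against mock (13.6%), beside 8.66% and 12.1% of all probe sets. SFPQ, a core paraspeckle protein gene, was at -0.40, -0.41 and -0.43 in mimic arrays at 221768_at, against 0.06, 0.07 and 0.00 in scrambled control arrays and 0.03, -0.02 and 0.08 in mock arrays. It fell by 0.46 (SE 0.05, limma adjusted p = 0.000288) against scrambled control, and 2 of its 5 probe sets were called there. HNRNPR rose at all 3 of its probe sets, by 0.21 to 0.35, against scrambled control, and against mock it changed by -0.01 to 0.02.

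Nuclear speckle proteins, the company of MALAT1, had 92 probe sets for 25 genes, with 1 higher and 7 lower against scrambled control (8.70%, beside 8.66% of all) and 2 higher and 12 lower against mock (15.2%, beside 12.1%). The share against scrambled control was that of all probe sets, so the genes named next are single values and not a result about the list. The splicing factor genes RBFOX2, PTBP2 and SRSF7 each fell at 1 probe set against scrambled control, by 0.54 (SE 0.05, limma adjusted p = 0.000136), 0.47 (SE 0.05, limma adjusted p = 0.000391) and 0.42 (SE 0.05, limma adjusted p = 0.000442). SRSF1 fell at 3 of 8 probe sets, by 0.31 to 0.38. Against mock PTBP2 218683_at had a log2 change of 0.06 (limma adjusted p = 0.567).

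Imprinted genes, the class of H19 and MEG3, had 65 probe sets for 22 genes, with 4 higher and 6 lower against scrambled control (15.4%, beside 8.66%) and 4 higher and 11 lower against mock (23.1%, beside 12.1%). GNAS, which encodes a stimulatory G protein subunit and other products of a complex locus, rose at 214157_at, with 1.44, 1.25 and 1.47 in mimic arrays, 0.00, 0.00 and -0.03 in scrambled control arrays and -0.44, -0.37 and -0.25 in mock arrays. The change was 1.39 against scrambled control (SE 0.07, limma adjusted p = 2.58e-06), close to that of UCA1, while 10 of its 12 probe sets did not pass there. GNAS probe sets disagreed in direction against mock. At 200981_x_at the mimic arrays had 0.03, -0.10 and -0.03, below the mock arrays at 0.14, 0.16 and 0.15. The scrambled control arrays, at 0.00, -0.03 and -0.13, were below the mock arrays too. The other GNAS probe sets ending in _x_at were also lower than in mock, in mimic and scrambled control arrays alike. Of the imprinted genes, 1 was called in both directions against mock. MEST rose by 0.45 (SE 0.05, limma adjusted p = 0.000474). SGCE fell by 0.54 (SE 0.06, limma adjusted p = 0.000286), and IGF2R, the receptor that clears IGF2, fell at 2 of 3 probe sets, by 0.43 and 0.49.

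The chromosomal neighbours of all 8 genes had 64 probe sets for 38 genes, with 3 higher and 2 lower against scrambled control (7.81%, beside 8.66%) and 2 higher and 4 lower against mock (9.38%, beside 12.1%). Not all of them are close: the farthest lay 68.5 kb from NEAT1, 700.5 kb from MEG3 and 2356.1 kb from PVT1. Neighbours of H19, MEG3, GAS5 and TUG1 held 0 calls by limma against scrambled control over 7, 5, 10 and 10 probe sets. Of these, 1, 1, 2 and 2 had an unadjusted p under 0.05, beside 21.1% of all probe sets. Neighbours of MALAT1 held 0 calls over 8 probe sets. Those of NEAT1 held 1 higher of 8, and those of PVT1 held 2 higher and 2 lower of 9. Over all probe sets 4.52% were called higher and 4.15% lower. SLC25A45, whose nearest member is NEAT1, rose at 1563498_s_at, with 0.39, 0.67 and 0.84 in mimic arrays against 0.14, -0.27 and 0.00 in scrambled control arrays (log2 change 0.67, SE 0.13, limma adjusted p = 0.00899), and did not pass at its other probe set. Of 60 probe sets for 20 genes tied to UCA1 in published work, 2 were higher and 3 lower against scrambled control (8.33%, beside 8.66%), and 1 was higher and 8 lower against mock (15.0%, beside 12.1%). CDKN1A, a cell cycle inhibitor gene, was at 0.33 against scrambled control (SE 0.06, limma adjusted p = 0.00502) and at 0.15 against mock (limma adjusted p = 0.140).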

How the data were processed

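The deposited table holds log2 values made by the authors, 54675 probe sets by 9 arrays. Per the labels' protocols, total RNA was biotin labelled with the GeneChip IVT kit. The summarisation and normalization are not given in the sources used here, and base 2 is the usual base, not a stated one. The median over the arrays was 0 in 100.0% of probe sets, and 48.89% held more than 1 value of exactly 0, which can lower the spread. Level classes came from the step between stored numbers, which doubles at 4 and 8. They were tested on simulated data with a small array-to-array spread and no group differences, where 98.0% of 6000 were recovered. Gene names came from the platform annotation of 2016: after 62 control probe sets, 41091 had 1 symbol, 1801 several and 11721 none, and only the first were named. All 31 members matched RefSeq's table by Entrez identifier. No column of other samples was present (0).

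All 54613 other probe sets were fitted with limma 3.58.1 in R 4.3.3 (1 mean per group, 9 arrays sharing 1 spread, two-sided). The fit was tested on simulated data with 200 changed probe sets in 3 runs. For mimic against scrambled control, 90.7% of log2 changes of 0.5 and 99.3% of log2 changes of 1 were recovered, with 38 false among 623 calls. Intervals are 95%. The members and gene lists were chosen with earlier results of these data known. From each list, genes were named by smallest p: up to 4 for mimic against scrambled control and up to 2 more for mimic against mock. Replicate numbers are shared by the groups, but same-numbered arrays did not deviate together (r from -0.235 to 0.154), so the fit has no block. Alternatives were a replicate block, quantile normalization of the centred values, fits to 6 arrays and 1 value per gene. Further ones were robust eBayes, no tied values, the highest level class and each array left out.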

Additional observations from a re-analysis of the deposited data

How the results depend on the processing

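Over 9 fits that each left out 1 array, the UCA1 log2 change lay between 1.47 and 1.65 for mimic minus scrambled control, 1.33 and 1.49 for mimic minus mock, and -0.23 and -0.08 for scrambled control minus mock. Quantile normalization gave 1.16 and 0.97 for the first 2. The count of other member probe sets called against scrambled control was 2 to 3 in those 9 fits. It was 5 of the 16 with no tied values, 6 of the 12 in the highest level class and 1 with the gene as the unit. Over all features these last fits called 4904, 4120 and 2500. They held fewer features than the full fit, so their member counts cannot be set beside its 8.66% and show no enrichment. Against mock the count of members called was 1 to 3, 0 with the gene as the unit and 1 without mock replicate 3 and mimic replicate 1. Those 2 arrays, whose deviations from their group means correlated most (r = 0.363), were left out as an alternative chosen after seeing the data. For scrambled control against mock it was 0 to 2, and 0 with 6 arrays, with the gene as the unit and without those 2 arrays.

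Over all probe sets, limma called 4730, 6585 and 2223 in the 3 comparisons, and 3448 to 4494, 4349 to 6599 and 732 to 2059 with 1 array left out. With the gene as the unit, and so fewer features, the counts were 2500, 3332 and 1295. For scrambled control against mock they were 1409 with 6 arrays, 3403 in the highest level class and 1318 without the 2 arrays. The causes were not tested. The replicate block gave 1366 calls for scrambled control against mock, and only MALAT1 223577_x_at lost its call among members (adjusted p = 0.0590). Not every array correlated best with an array of its own number. Of 1344 single member values under alternatives, 14 lost a call, 17 gained one and 0 reversed a called direction. With 3 arrays a group and signal over background unknown, small changes of MEG3, GAS5 and PVT1 could be missed.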
